A study of Mus musculus with 10 samples.

Results

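The alpha and beta tubulins described here are 10 genes, 5 alpha (Tuba1a, Tuba1b, Tuba1c, Tuba4a and Tuba8) and 5 beta (Tubb2a, Tubb4a, Tubb4b, Tubb5 and Tubb6), taken by gene symbol from the 12803 genes of a table of mouse muscle stem cells. All 10 symbols were found once and none was left out for a low level. RNA was compared between 3 groups of libraries from young male C57BL/6 mice, and each library came from the cells of 1 animal. Cells treated with Tubastatin A (4 libraries) had spent 24 h in culture with 40 µM of this inhibitor of the deacetylase HDAC6, dissolved in DMSO. Vehicle cells (3 libraries) had spent 24 h with the same volume of DMSO, and both cultures were kept in Ham's F-10 with 10% horse serum on plastic coated with extracellular matrix. Fresh cells (3 libraries, 0 h) were taken directly after sorting, and their treatment label also reads vehicle although they were not cultured. The sort from limb muscle kept cells positive for VCAM and negative for CD45, CD31 and Sca1, the labels give no engineered allele, and libraries were made from 5 ng RNA by SMART-Seq v4.

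Microtubules are polymers of alpha and beta tubulin dimers, and mammals encode each subunit in several genes, called isotypes, that differ most in the acidic tail at the end of the protein. Acetylation of a lysine of alpha tubulin inside the microtubule is made by the acetyltransferase encoded by Atat1 and removed by HDAC6 and SIRT2, so tubulin is a main substrate of the enzyme that Tubastatin A inhibits. Tubulin messages are also subject to autoregulation, in which a ribosome-bound factor encoded by Ttc5 recognises the emerging tubulin protein when soluble dimers are abundant and its message is degraded. Muscle stem cells rest in quiescence until injury or isolation activates them, after which they enlarge, enter the cell cycle and need microtubules for their spindles.

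The stretch around codon 40 of the alpha genes is shown because it encodes the lysine acted on by HDAC6. Codons are counted from 1 at the start codon, the sequences come from GENCODE M21 transcripts in the mm10 build, and capitals mark codon 40 within codons 35 to 45. Tuba1a is read from chr15:98951560-98951592 on the minus strand, Tuba1b from chr15:98933064-98933096 on the minus strand, Tuba1c from chr15:99034193-99034225 on the plus strand, Tuba4a from chr1:75217303-75217335 on the minus strand and Tuba8 from chr6:121220483-121220515 on the plus strand. Tuba8 has GCC, an alanine codon, and the other alpha genes have AAG, a lysine codon.
Tuba1a: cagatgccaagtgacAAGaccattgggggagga
Tuba1b: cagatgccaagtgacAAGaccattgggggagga
Tuba1c: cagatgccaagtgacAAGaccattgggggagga
Tuba4a: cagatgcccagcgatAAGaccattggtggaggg
Tuba8: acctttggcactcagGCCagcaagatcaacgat

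The last 20 codons before the stop are shown for Tuba4a (chr1:75215625-75215684, minus strand) and Tuba8 (chr6:121226017-121226076, plus strand) because the final residue decides whether an alpha tubulin is made with the terminal tyrosine that detyrosination removes. Capitals mark the last codon, which is GAG, a glutamate codon, in Tuba4a and TTT, a phenylalanine codon, in Tuba8.
Tuba4a: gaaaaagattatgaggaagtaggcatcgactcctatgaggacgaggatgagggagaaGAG
Tuba8: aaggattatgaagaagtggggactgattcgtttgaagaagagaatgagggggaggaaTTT

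The corresponding tails of Tubb4a (chr17:57080693-57080752, minus strand) and Tubb5 (chr17:35834985-35835044, minus strand) are shown because these were the beta genes with the most opposed changes, and they share 83.3% of these bases. No base is in capitals.
Tubb4a: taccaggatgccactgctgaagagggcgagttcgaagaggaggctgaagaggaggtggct
Tubb5: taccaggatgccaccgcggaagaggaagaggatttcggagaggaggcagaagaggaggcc

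The similarity of these genes bears on their counts. Over the whole coding sequence, Tuba1a and Tuba1b share 98.3% of bases, Tuba1a and Tuba1c 97.6% and Tuba1b and Tuba1c 98.4%, whereas the other pairs of alpha genes share 79.1% to 85.6% and the pairs of beta genes 80.8% to 84.7%. Of all windows of 150 bases, the read length, 54.7% in Tuba1a, 51.5% in Tuba1b, 40.1% in Tuba1c, 27.9% in Tubb2a, 10.5% in Tuba8 and 11.9% in Tubb4b also occur in another annotated gene. These are mainly the other Tuba1 genes and predicted genes for the Tuba1 genes, Tubb2b for Tubb2a, a predicted gene for Tuba8 and a pseudogene for Tubb4b. Windows of Tuba4a are shared (30.3%) with Stk16, which overlaps it, and the use of strand in counting is not stated. Tubb4a, Tubb5 and Tubb6 had no shared window. In mm10, Tuba1a, Tuba1b and Tuba1c are neighbours on chromosome 15, within chr15:98931425-99038110, Tubb2a lies at chr13:34074274-34078007 and Tubb4b at chr2:25222160-25224702. How reads that fit several genes were counted is not given in the sources used here. The split among Tuba1a, Tuba1b and Tuba1c is therefore uncertain, and their sum is given below as well. Reads left out or counted more than once would also alter this sum, the shares, the ranks and the alpha to beta ratio.

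Levels are RPKM, reads per kilobase of exon and per unit of a library size that the authors scaled. Changes are differences of log2(RPKM + 1) from a limma fit over all 12803 genes, called at an adjusted p under 0.05, and they understate the change of genes with low levels. The libraries held 37.0 to 54.6 M reads in the table, and 1 read in a gene of 1 kb was worth 0.016 to 0.0339 RPKM. Reads in the table over scaled library size lay between 0.818 and 0.879 in Tubastatin A, between 0.897 and 0.917 in vehicle and between 1.37 and 1.39 in fresh libraries, so cultured and fresh RPKM are on scales that differ with the choice of scaling. Scaling to equal sums moved the median change of all genes by 0.11 on the log2 scale for Tubastatin A against vehicle, by 0.49 for vehicle against fresh and by 0.59 for Tubastatin A against fresh, where the directions of Tuba1a and Tubb2a then turned. Fresh replicate 1 stood apart from fresh replicates 3 and 2, with a chi-square per degree of freedom of 309.5 and 438.7. Fresh replicates 2 and 3 had 154.7 against each other, and pairs of cultured replicates had 26.7 to 74.2, so fresh libraries varied more. The 3 groups share 1 estimate of the spread in the fit, so the fresh spread also enters Tubastatin A against vehicle. All 10 muscle stem cell markers looked for were measured, and Pax7, the transcription factor that defines these cells, had at least 489 reads in every library. Its reads were 489 to 759 in Tubastatin A, 1058 to 1419 in vehicle and 2651 to 7650 in fresh libraries. Summed over these markers, levels were 787.2 to 864.8 RPKM in Tubastatin A, 1558 to 1783 RPKM in vehicle and 2854 to 3820 RPKM in fresh libraries. With Tubastatin A against vehicle 7 markers were lower and 2 higher, beside 29.7% and 29.6% of all genes. In vehicle against fresh 8 were lower and 0 higher, beside 35% and 32% of all genes. Myod1, 1 of these markers, had 95747 to 106707 reads in vehicle, 47773 to 58187 in Tubastatin A and 19888 to 58859 in fresh libraries.

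Summed markers of other cells also moved with the groups, and some sums rest mainly on 1 gene. The 8 of 9 fibro-adipogenic progenitor markers in the table summed to 9.09 to 16.5 RPKM in Tubastatin A, 39.8 to 47.4 RPKM in vehicle and 424.4 to 816.1 RPKM in fresh libraries. Of this, Col3a1 averaged 6.50, 38.0 and 407.4 RPKM in these groups. With Tubastatin A against vehicle, 1 of the 8 was higher, 2 were lower and 5 did not pass. Among all genes 29.6% were called higher and 29.7% lower there. The 10 of 12 mature myofibre markers in the table summed to 17.6 to 371.5 RPKM in Tubastatin A, with the highest value in Tubastatin A replicate 2, to 28.5 to 41.03 RPKM in vehicle and to 188.2 to 299.2 RPKM in fresh libraries. All 9 endothelial markers were in the table and summed to 5.95 to 6.70 RPKM in Tubastatin A, 3.22 to 4.28 RPKM in vehicle and 38.5 to 49.2 RPKM in fresh libraries. Of 7 immune markers 3 were in the table, at 2.53 to 4.03, 0.731 to 0.946 and 10.2 to 21.6 RPKM in Tubastatin A, vehicle and fresh libraries, and the pan-leukocyte gene Ptprc was not in the table. Tenocyte markers (6 of 6 in the table) summed to 5.53 to 12.5, 66.5 to 78.1 and 44.6 to 66.5 RPKM in Tubastatin A, vehicle and fresh libraries. Of this, Scx averaged 4.14, 70.5 and 10.0 RPKM. In vehicle against fresh, Scx was the 1 tenocyte marker called higher and 5 were lower, beside 32% and 35% of all genes. Pericyte and smooth muscle markers (7 of 7) summed to 12.3 to 63.4, 176.8 to 241.1 and 238.7 to 291.9 RPKM, and Schwann cell markers (5 of 7, without Sox10 and S100b) to 45.6 to 51.8, 141.5 to 146.6 and 280.6 to 338.9 RPKM, in the same order of groups. Acta2, 1 of the pericyte and smooth muscle markers, averaged 23.0, 211.9 and 211.8 RPKM in these groups. With Tubastatin A against vehicle, 1 of these 7 markers was higher, 1 was lower and 5 did not pass, beside 29.6% and 29.7% of all genes called higher and lower. Of 4 erythroid markers 1 was in the table, at most 0.0993 RPKM in cultured libraries and 4.63 to 17.4 RPKM in fresh libraries. No marker in the table was without reads in every library. The part of these cells in the tubulin values was not tested. In such bulk samples, fewer cells of a type and less RNA per cell cannot be told apart.

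Tubastatin A cells used a different mix of tubulin genes than vehicle cells, with less Tuba1b and Tubb5 and more Tubb4a, Tubb2a, Tubb4b, Tuba1c, Tuba4a and Tuba8. The 10 genes together made up 1718 ± 104.1 RPKM in Tubastatin A, 1946 ± 175.3 RPKM in vehicle and 1907 ± 468.6 RPKM in fresh cells (SD, n = 4, 3 and 3). On this scale the ranges of the groups overlapped. Their share of the summed RPKM of all genes does not depend on the scaling between libraries. This share was at least 0.681% in Tubastatin A and at least 0.684% in vehicle libraries, with overlapping ranges. It was at most 0.536% in fresh libraries, below every cultured library. Between Tubastatin A and vehicle, 6 of the 10 genes were higher, 2 were lower and 2 did not pass the test. Of all genes, 59.3% were called in this comparison, so the count of 8 tubulins is to be read against a background in which most genes changed. Libraries of both groups did not overlap for 9 of the 10 tubulins, and this held for 68.6% of all genes. At least 2-fold changes were called for 4 of the 10 (18.8% of all genes), of which Tuba8 and Tubb4a were higher (8.54% of all genes) and Tuba1b and Tubb5 lower (10.2%). The median change of the tubulins was 0.73 on the log2 scale, and that of all genes was 0.02.

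**Figure D1:**
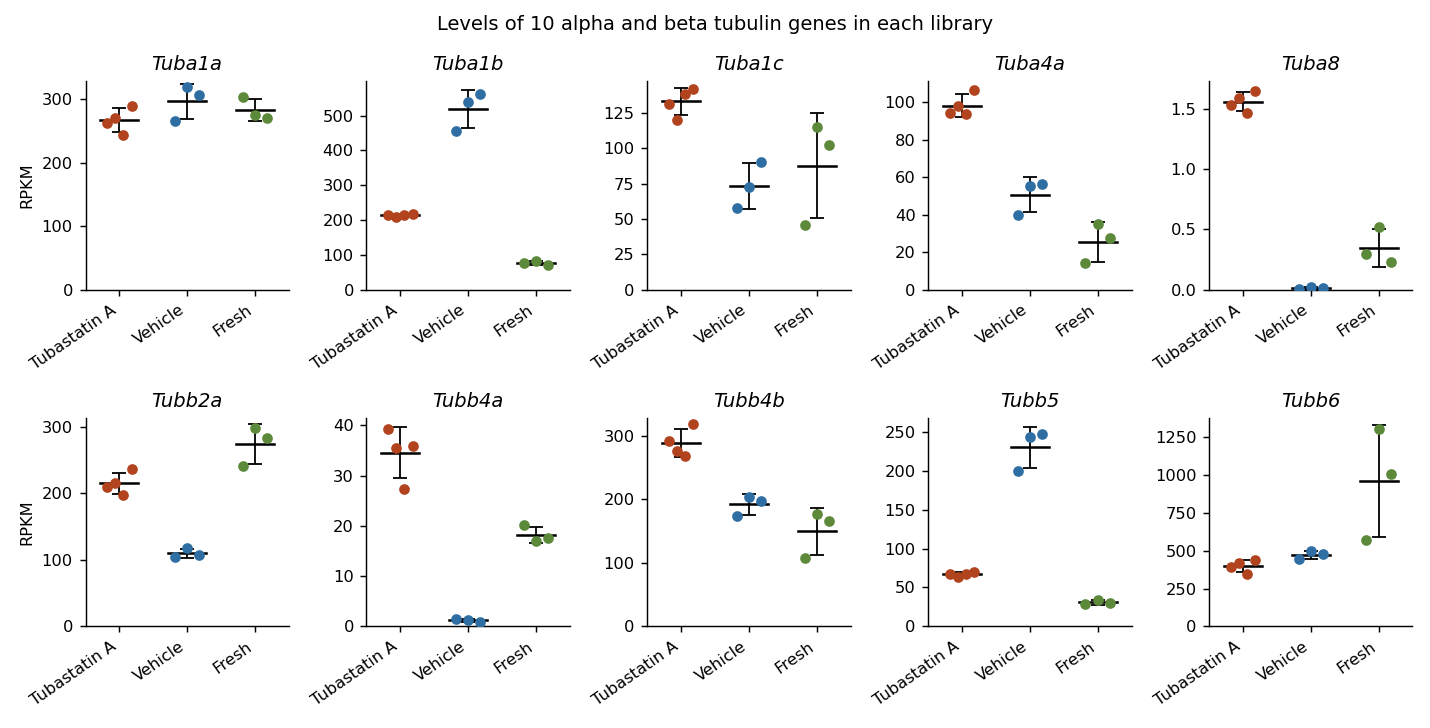
Level (RPKM, linear axis from 0) of each tubulin gene in every library; points are libraries, horizontal lines the mean and whiskers 1 SD over 4 Tubastatin A, 3 vehicle and 3 fresh libraries. Tuba1b and Tubb5 are highest in vehicle, whereas Tubb4a and Tuba8 are near 0 in vehicle and highest in Tubastatin A.

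Among the alpha genes, Tuba1a, the isotype best known from developing neurons, had overlapping levels in all groups. It had 263.3, 270.8, 244.4 and 290.2 RPKM in Tubastatin A libraries, 265.6, 318.9 and 306.5 RPKM in vehicle libraries and 303.4, 274.9 and 271.0 RPKM in fresh libraries. The groups overlapped in every pair, and no comparison passed, with log2 changes of -0.15 (SE 0.13, limma adjusted p = 0.35) for Tubastatin A against vehicle, 0.07 (SE 0.14, adjusted p = 0.70) for vehicle against fresh and -0.08 (SE 0.13, adjusted p = 0.60) for Tubastatin A against fresh. The values against fresh cells depend on the scaling. Scaled to equal sums, Tuba1a was 0.64 higher on the log2 scale in Tubastatin A than in fresh cells and 0.67 higher in vehicle than in fresh cells, and both changes then passed.

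Tuba1b, a widely expressed alpha isotype, was the alpha gene with the widest range of group means on the log2(RPKM + 1) scale. Its levels were 214.2, 209.5, 213.5 and 217.5 RPKM in Tubastatin A libraries, 456.6, 539.7 and 560.9 RPKM in vehicle libraries and 76.9, 83.6 and 71.5 RPKM in fresh libraries. No library of one group reached the range of another, and the Tubastatin A libraries lay between fresh and vehicle. The log2 change was -1.27 for Tubastatin A against vehicle (SE 0.12, limma adjusted p = 3.9e-06), 2.73 for vehicle against fresh (SE 0.13, adjusted p = 6.9e-09) and 1.46 for Tubastatin A against fresh (SE 0.12, adjusted p = 8.8e-07).

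Tuba1c, which shares 98.4% of its coding bases with Tuba1b, did not follow it. It had 131.6, 120.3, 138.5 and 142.1 RPKM in Tubastatin A libraries, against 57.6, 72.6 and 90.0 RPKM in vehicle libraries. Fresh libraries lay at 45.7, 115.0 and 102.5 RPKM, with fresh replicate 1 low. Tuba1c was 0.87 higher on the log2 scale in Tubastatin A than in vehicle cells (SE 0.27, limma adjusted p = 0.015), although without vehicle replicate 1 the change was 0.71 and did not pass (adjusted p = 0.071). Against fresh cells it was 0.70 higher with Tubastatin A (SE 0.27, adjusted p = 0.038), a call that did not hold when only the 2 groups compared were fitted, without vehicle replicate 2, or without any 1 of the Tubastatin A libraries. Without fresh replicate 1 this change was 0.29 (adjusted p = 0.13). Vehicle and fresh cells differed by -0.17 (adjusted p = 0.62), and by -0.58 without fresh replicate 1 (adjusted p = 0.0098). Summed over Tuba1a, Tuba1b and Tuba1c, whose reads may not be separable, levels were 613.9 ± 24.5 RPKM in Tubastatin A, 889.5 ± 95.9 RPKM in vehicle and 448.2 ± 24.0 RPKM in fresh cells (SD, n = 4, 3 and 3), and the ranges of this sum did not overlap.

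Tuba4a, the alpha isotype made without the terminal tyrosine and abundant in adult muscle and platelets, was highest with Tubastatin A. Its levels were 94.3, 97.8, 93.5 and 106.6 RPKM in Tubastatin A libraries, 39.9, 55.5 and 56.5 RPKM in vehicle libraries and 14.2, 34.9 and 27.4 RPKM in fresh libraries. All Tubastatin A libraries were above all others, and vehicle libraries were above fresh libraries. The log2 change was 0.95 for Tubastatin A against vehicle (SE 0.24, limma adjusted p = 0.0049), 1.03 for vehicle against fresh (SE 0.26, adjusted p = 0.0036) and 1.99 for Tubastatin A against fresh (SE 0.24, adjusted p = 1.8e-05). Reads of the overlapping gene Stk16 may be part of these values.

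Tuba8, the divergent alpha isotype of heart, skeletal muscle and testis that lacks the acetylated lysine, was expressed at a low level. The recovered reads were 216, 207, 150 and 185 in Tubastatin A libraries, 0, 2 and 1 in vehicle libraries and 26, 35 and 16 in fresh libraries. In RPKM these were 1.53, 1.59, 1.46 and 1.65 in Tubastatin A libraries and 0.292, 0.524 and 0.228 in fresh libraries, while no vehicle library was above 0.0206. The groups did not overlap in any pair, and Tuba8 was 1.34 higher in Tubastatin A than in vehicle cells (SE 0.08, limma adjusted p = 1.1e-07), changed by -0.41 in vehicle against fresh cells (adjusted p = 0.0016), and was 0.93 higher in Tubastatin A than in fresh cells (adjusted p = 1.5e-06). These fitted changes are small because of the pseudocount of 1 RPKM. Per scaled library size, Tubastatin A libraries held 159.6 times the reads of vehicle libraries (758 against 3 reads, exact 95% interval 54.4 to 775.6) and 4.58 times those of fresh libraries (758 against 77 reads, interval 3.62 to 5.87). Vehicle libraries held 0.0287 times the reads of fresh libraries (3 against 77 reads, interval 0.00579 to 0.0871), and all these intervals cover counting error only.

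Among the beta genes, Tubb5, a beta isotype common to most tissues, had the same order of groups as Tuba1b. It had 67.4, 63.3, 67.5 and 70.2 RPKM in Tubastatin A libraries, 199.9, 244.2 and 247.2 RPKM in vehicle libraries and 28.7, 34.1 and 29.5 RPKM in fresh libraries. Again no groups overlapped and Tubastatin A libraries lay between fresh and vehicle. The log2 change was -1.76 for Tubastatin A against vehicle (SE 0.11, limma adjusted p = 1.5e-07), 2.86 for vehicle against fresh (SE 0.12, adjusted p = 2.8e-09) and 1.10 for Tubastatin A against fresh (SE 0.11, adjusted p = 5.2e-06).

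Tubb4a, the beta isotype otherwise typical of brain and its myelinating cells, was highest with Tubastatin A and lowest in vehicle. It stood at 39.2, 35.5, 27.3 and 36.0 RPKM in Tubastatin A libraries, against 1.54, 1.27 and 0.891 RPKM in vehicle libraries. Fresh libraries had 20.1, 16.9 and 17.6 RPKM. Each Tubastatin A library exceeded each fresh library, and vehicle libraries were lowest, with 89 to 165 reads per library. The log2 change was 3.99 for Tubastatin A against vehicle (SE 0.14, limma adjusted p = 2.3e-09), -3.11 for vehicle against fresh (SE 0.15, adjusted p = 8.3e-09) and 0.88 for Tubastatin A against fresh (SE 0.14, adjusted p = 2.0e-04). The ratio of Tubb5 to Tubb4a, which no scaling between libraries can alter, was 1.72 to 2.47 in Tubastatin A, 129.5 to 277.3 in vehicle and 1.43 to 2.02 in fresh libraries.

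Tubb2a, a major beta isotype of nerve cells, was lower in vehicle than in both other groups. Its levels were 209.7, 214.8, 197.9 and 236.6 RPKM in Tubastatin A libraries, 103.9, 117.4 and 107.3 RPKM in vehicle libraries and 240.1, 297.6 and 282.5 RPKM in fresh libraries. Tubb2a was 0.96 higher on the log2 scale in Tubastatin A than in vehicle cells (SE 0.13, limma adjusted p = 4.6e-05), and the change of vehicle against fresh was -1.31 (SE 0.14, adjusted p = 4.1e-06). Against fresh cells the change with Tubastatin A was -0.34 (SE 0.13, adjusted p = 0.032), and scaled to equal sums it turned to 0.38, or to 0.34 when scaled by reads in the table alone. This call was also lost without fresh replicate 2 or 3 or Tubastatin A replicate 1, 2 or 3, at -0.35 to -0.28. With Tubb2b, the near copy of Tubb2a, added, sums were 219.2 ± 16.3 RPKM in Tubastatin A, 124.2 ± 5.98 RPKM in vehicle and 293.4 ± 23.7 RPKM in fresh cells (SD, n = 4, 3 and 3).

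Tubb4b, a widely expressed beta isotype found also in cilia, was the most abundant tubulin after Tubb6 in Tubastatin A cells. It had 290.8, 275.3, 268.5 and 317.6 RPKM in Tubastatin A libraries, 173.1, 204.0 and 197.9 RPKM in vehicle libraries and 107.5, 176.0 and 165.3 RPKM in fresh libraries. Tubastatin A libraries were above all others, whereas vehicle and fresh libraries overlapped. The log2 change was 0.59 for Tubastatin A against vehicle (SE 0.17, limma adjusted p = 0.012; without vehicle replicate 1, 0.51 and adjusted p = 0.052), 0.38 for vehicle against fresh (SE 0.18, adjusted p = 0.084) and 0.97 for Tubastatin A against fresh (SE 0.17, adjusted p = 3.7e-04). The change of vehicle against fresh passed at 0.98 with equal library sums, 0.99 by reads in the table alone, 0.47 with relative log expression scaling (adjusted p = 0.045), 0.45 with upper quartile scaling (adjusted p = 0.030) and 0.52 without fresh replicate 2 (adjusted p = 0.022).

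Tubb6, a beta isotype that is raised in regenerating and dystrophic mouse muscle, was the most abundant of the 10 genes in Tubastatin A and in fresh cells. Its levels were 394.7, 420.3, 348.2 and 435.7 RPKM in Tubastatin A libraries, 445.1, 495.0 and 477.9 RPKM in vehicle libraries and 571.6, 1304 and 1008 RPKM in fresh libraries. Fresh libraries varied most, and each Tubastatin A library was below each vehicle library. That difference, a log2 change of -0.24 (SE 0.24), did not pass the test (limma adjusted p = 0.41). Against fresh cells the change was -0.94 in vehicle (SE 0.26, adjusted p = 0.0068) and -1.19 with Tubastatin A (SE 0.24, adjusted p = 0.0011), and scaled to equal sums these were -0.34 and -0.47 and did not pass.

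**Figure D2:**
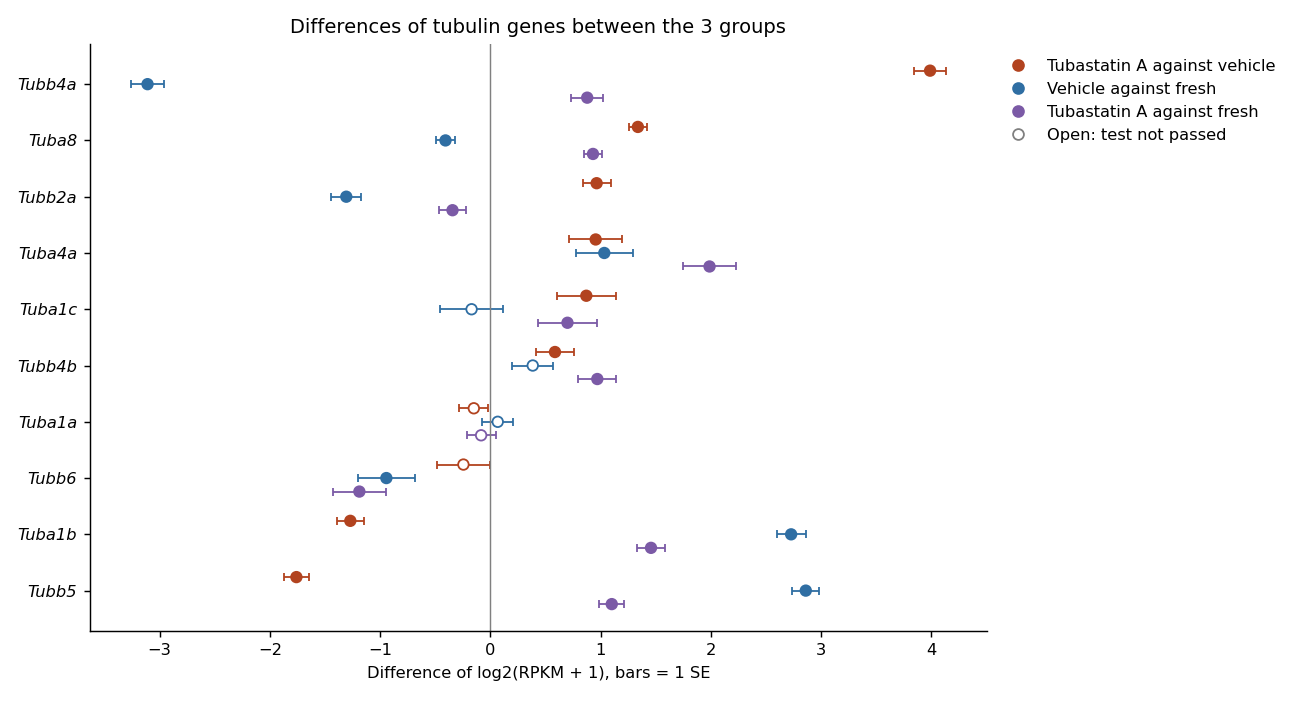
Difference of log2(RPKM + 1) for each tubulin gene in 3 comparisons, with whiskers of 1 SE; filled points passed the limma test at an adjusted p under 0.05 and open points did not. Tubb4a and Tubb5 lie at the ends for Tubastatin A against vehicle, at 3.99 and -1.76.

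Vehicle culture and Tubastatin A culture both moved tubulin genes away from fresh cells. In vehicle against fresh, 3 of the 10 genes (Tuba1b, Tuba4a and Tubb5) were higher, 4 (Tuba8, Tubb2a, Tubb4a and Tubb6) were lower and 3 did not pass, where 67% of all genes were called, 32% higher and 35% lower. The median change of the tubulins was -0.05 on the log2 scale, that of all genes -0.03, and 5 tubulins changed at least 2-fold (30.6% of all genes), with Tuba1b, Tuba4a and Tubb5 higher (12.9% of all genes) and Tubb2a and Tubb4a lower (17.7%). In Tubastatin A against fresh, 7 were higher, 2 (Tubb2a and Tubb6) were lower and 1 did not pass, where 64.9% of all genes were called, 29.8% higher and 35.2% lower. Here the median of the tubulins was 0.90 and that of all genes -0.03, and 4 changed at least 2-fold (23.9% of all genes), with Tuba1b, Tuba4a and Tubb5 higher (8.19%) and Tubb6 lower (15.7%). These counts are on the log2(RPKM + 1) scale, on which Tuba8 stays under 2-fold against fresh cells in both cultures although its read ratios, given above, are larger. The comparisons share libraries, so their changes are not independent of each other. Libraries did not overlap for 7 tubulins in vehicle against fresh and for 9 in Tubastatin A against fresh, and this held for 67.6% and 61.3% of all genes.

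The order of the genes by mean level also differed. In Tubastatin A cells it ran Tubb6 (399.7 RPKM), Tubb4b (288.1 RPKM), Tuba1a (267.2 RPKM), Tubb2a (214.7 RPKM), Tuba1b (213.7 RPKM), Tuba1c (133.1 RPKM), Tuba4a (98.0 RPKM), Tubb5 (67.1 RPKM), Tubb4a (34.5 RPKM) and Tuba8 (1.56 RPKM). Neighbours whose means ± SD overlapped were Tubb4b and Tuba1a, and Tubb2a and Tuba1b. In vehicle cells Tuba1b (519.0 RPKM) came first, then Tubb6 (472.7 RPKM), Tuba1a (297.0 RPKM), Tubb5 (230.4 RPKM), Tubb4b (191.7 RPKM), Tubb2a (109.5 RPKM), Tuba1c (73.4 RPKM), Tuba4a (50.6 RPKM), Tubb4a (1.23 RPKM) and Tuba8. Here Tuba1b and Tubb6, Tubb5 and Tubb4b, and Tuba1c and Tuba4a overlapped in this way. In fresh cells the order was Tubb6 (961.4 RPKM), Tuba1a (283.1 RPKM), Tubb2a (273.4 RPKM), Tubb4b (149.6 RPKM), Tuba1c (87.7 RPKM), Tuba1b (77.3 RPKM), Tubb5 (30.8 RPKM), Tuba4a (25.5 RPKM), Tubb4a (18.2 RPKM) and Tuba8 (0.348 RPKM). There Tuba1a and Tubb2a, Tubb4b and Tuba1c, Tuba1c and Tuba1b, Tubb5 and Tuba4a, and Tuba4a and Tubb4a overlapped. Tuba1b thus ranked 150th among all 12803 genes with Tubastatin A, 34th in vehicle and 852nd in fresh cells.

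Shares here are of the summed RPKM of the 5 alpha or the 5 beta genes in a library. They do not depend on how libraries are scaled to each other. Tuba1a made up 37.4% ± 1.49 of alpha tubulin in Tubastatin A, 31.6% ± 1.23 in vehicle and 60.1% ± 7.80 in fresh cells (SD, n = 4, 3 and 3 here and below). Tuba1b made up 30.0% ± 0.939 in Tubastatin A, 55.2% ± 0.509 in vehicle and 16.3% ± 1.18 in fresh cells. The alpha pool was thus led by Tuba1b in vehicle cells and by Tuba1a in the other groups. Tuba1c held 18.7% ± 1.16, 7.76% ± 0.987 and 18.2% ± 6.82 in Tubastatin A, vehicle and fresh cells. Tuba4a held 13.7% ± 0.335 with Tubastatin A, where it was above all other libraries, and 5.35% ± 0.425 in vehicle and 5.29% ± 1.87 in fresh cells. Tuba8, the gene without the lysine codon, was 0.212% to 0.227% in Tubastatin A libraries, at most 0.00209% in vehicle libraries and 0.0482% to 0.103% in fresh libraries.

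The beta pool was led by Tubb6 in all groups, at 39.8% ± 1.4 in Tubastatin A, 47.0% ± 1.0 in vehicle and 65.8% ± 6.23 in fresh cells. Tubb4b held 28.7% ± 0.979 in Tubastatin A, 19.1% ± 0.268 in vehicle and 10.6% ± 0.828 in fresh cells. Tubb2a held 21.4% ± 0.366 in Tubastatin A and 20.0% ± 4.38 in fresh cells, with overlapping ranges, against 10.9% ± 0.444 in vehicle cells. Tubb5 held 6.70% ± 0.515 in Tubastatin A, 22.9% ± 1.17 in vehicle and 2.27% ± 0.608 in fresh cells. Tubb4a held 3.43% ± 0.386 in Tubastatin A, 0.124% ± 0.0406 in vehicle and 1.39% ± 0.604 in fresh cells. Tubb2b, at 4.48, 14.6 and 20.0 RPKM in Tubastatin A, vehicle and fresh cells, was not counted in this pool. Neither was Tubb3, at 1.31, 2.44 and 0.271 RPKM. With the length of the main transcript in place of all exons, the order of groups was kept for Tubb5, at 6.69%, 22.1% and 2.21% in Tubastatin A, vehicle and fresh cells, and for Tuba1b, at 29.5%, 55.5% and 16.6%. It was also kept for Tubb6, at 43.8%, 50.2% and 70.5%, and for Tuba4a, at 16.4%, 6.52% and 6.51%. For Tuba1c the order of Tubastatin A and fresh cells turned, at 19.7% and 19.8%, with an SD of 7.21% in fresh cells.

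The balance of alpha and beta tubulin RNA differed as well. Alpha genes summed to 713.5 ± 30.2 RPKM in Tubastatin A, 940.1 ± 105.2 RPKM in vehicle and 474.0 ± 34.3 RPKM in fresh cells (SD, n = 4, 3 and 3). Beta genes, without Tubb2b and Tubb3, summed to 1004 ± 76.3, 1006 ± 72.6 and 1433 ± 434.7 RPKM in Tubastatin A, vehicle and fresh cells. The ratio of alpha to beta RPKM was 0.692 to 0.760 in Tubastatin A, 0.887 to 0.983 in vehicle and 0.278 to 0.455 in fresh libraries, without overlap between groups. This ratio sets different genes against each other, so it depends on the exon lengths used and on how shared reads were counted. It was not recomputed with transcript lengths, and tubulin protein was not measured.

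**Figure D3:**
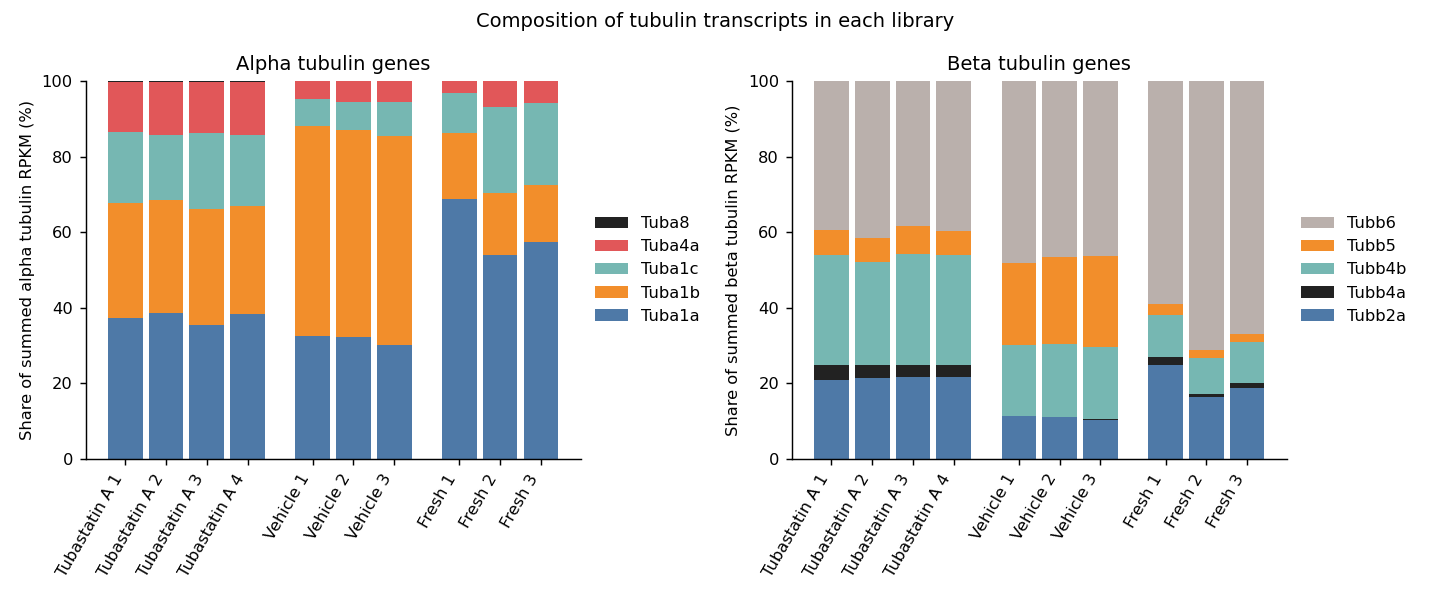
Share (%) of each gene in the summed RPKM of the 5 alpha (left) and 5 beta genes (right), with a bar for each library. On average, Tuba1b and Tubb5 fill 30.0% and 6.70% in Tubastatin A, 55.2% and 22.9% in vehicle and 16.3% and 2.27% in fresh libraries.

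For each tubulin whose group means spanned at least 1 log2 unit, the genes with the most similar pattern over the 10 libraries were sought. The search covered 3347 or 3348 other genes whose log2 level averaged 4 or more. Predicted genes, with symbols of Gm and a number or ending in Rik, were left out of it. The measure was the root mean square difference of log2 levels after each gene's own mean was subtracted. Tubb5 was nearest to Galk1, the first enzyme of galactose use (0.11), then to Mtap, an enzyme of methionine salvage (0.20), and then to Tuba1b (0.22). Tuba1b was nearest to Mrpl18 (0.15) and Mrpl34 (0.19), which encode mitochondrial ribosomal proteins, and to the splicing factor gene Prpf31 (0.17), with Tubb5 in position 9. Tubb4a was nearest to the secreted protease gene Htra1 (0.21), then to Mapre3, which encodes a protein that tracks growing microtubule ends (0.31), and to the stress cytokine gene Gdf15 (0.31). Tuba4a lay nearest to the proteasome subunit genes Psma1 (0.16) and Psma2 (0.20) and to the kinetochore gene Zwint (0.17). Tuba8 lay nearest to Bnip3l, a receptor for mitophagy (0.09), Arl8a, a GTPase of lysosomes (0.11), and Nr1h2, a sterol receptor (0.12). Its own log2 levels were low and compressed by the pseudocount of 1 RPKM, so these matches do not hold for fold changes. Bnip3l averaged 75.5 RPKM in Tubastatin A and 29.5 RPKM in vehicle cells, whereas Tuba8 reads per scaled library size differed 159.6 times. Tubb2a was nearest to Ggps1 (0.11), Laptm4b (0.11) and Yipf4 (0.12), and Tubb6 to Eif3j1 (0.08), Sub1 (0.10) and Tpst1 (0.11).

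Most other measured members of the tubulin family fell with Tubastatin A against vehicle. Of 10 other tubulin genes looked for, 6 were in the table, and 5 of them were lower, none was higher and Tubg2, with a log2 change of -0.25 (limma adjusted p = 0.30), did not pass. Among all genes 29.7% were called lower and 29.6% higher in this comparison. Tubg1, the gamma tubulin that nucleates microtubules, had 40.4, 40.7, 38.1 and 45.8 RPKM in Tubastatin A libraries, against 64.8, 69.6 and 65.4 RPKM in vehicle libraries, a log2 change of -0.68 (limma adjusted p = 4.5e-04). Fresh libraries had 16.5, 19.1 and 13.5 RPKM of Tubg1. Tubb3, a beta isotype of neurons, averaged 1.31 ± 0.257 RPKM in Tubastatin A, 2.44 ± 0.213 RPKM in vehicle and 0.271 ± 0.119 RPKM in fresh cells, and was lower with Tubastatin A than with vehicle by a log2 change of -0.58 (limma adjusted p = 7.6e-04). Tubb2b averaged 4.48 ± 0.940, 14.6 ± 3.29 and 20.0 ± 6.17 RPKM in Tubastatin A, vehicle and fresh cells, with a log2 change of -1.51 for Tubastatin A against vehicle (limma adjusted p = 6.1e-05), opposite in sign to that of Tubb2a. Tubd1 and Tube1, the delta and epsilon tubulins of centrioles, changed by -0.52 and -0.87 (limma adjusted p = 9.6e-04 and 3.0e-05). In vehicle against fresh, Tubg1 (1.97), Tubb3 (1.44) and Tube1 (0.75) were higher and the other 3 did not pass. Among all genes 32% were called higher and 35% lower in vehicle against fresh. Of 9 genes of the gamma tubulin ring complex and its adaptors, 2 were lower (Tubgcp2 and Tubgcp3, by log2 changes of -1.61 and -0.59) and none was higher with Tubastatin A against vehicle, and 5 were higher and 1 lower in vehicle against fresh. Tubgcp5 was also called higher with Tubastatin A without fresh replicate 1 (0.32, limma adjusted p = 0.044).

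Of 23 genes for tubulin folding, which cover the chaperonin TRiC, prefoldin and the tubulin cofactors, 15 were higher and 1 was lower in vehicle against fresh, beside 67% of all genes called, 32% higher and 35% lower. With Tubastatin A against vehicle 2 were higher (Tbcel, a tubulin-destabilising cofactor-like protein, and Pdcl), 2 were lower (Tcp1, a TRiC subunit, and Arl2, a GTPase of cofactor cycling) and 19 did not pass, beside 59.3% of all genes called. These counts move with the setting, to 8 higher with equal library sums, 5 higher with upper quartile scaling or without fresh replicate 1, 5 higher and 5 lower when only the 2 groups were fitted, and 4 and 4 without fresh replicate 2. Tcp1 averaged 70.5 ± 5.01 RPKM in Tubastatin A, 111.3 ± 4.97 RPKM in vehicle and 56.4 ± 11.7 RPKM in fresh cells. Of the 4 stathmin genes, which encode proteins that bind free dimers, Stmn1 and Stmn4 were in the table. Stmn1 had 18.8, 19.3, 18.1 and 21.5 RPKM in Tubastatin A libraries, 157.5, 192.7 and 157.9 RPKM in vehicle libraries and 29.8, 48.3 and 34.99 RPKM in fresh libraries. Its log2 change was -3.05 for Tubastatin A against vehicle (limma adjusted p = 2.1e-08) and 2.16 for vehicle against fresh (adjusted p = 3.0e-07). Stmn4 had 0.141 ± 0.0368 RPKM in Tubastatin A and 0.365 ± 0.209 RPKM in fresh cells and no read in vehicle libraries, where 0.00740 RPKM stands in the place of 0, and its log2 change of Tubastatin A against vehicle was 0.18 (limma adjusted p = 0.097). Stmn4 passed with a pseudocount of 0.1 RPKM (1.15, limma adjusted p = 0.0036), with equal library sums (0.22), when only the 2 groups were fitted, without fresh replicate 2 and with voom on recovered reads (4.64, adjusted p = 1.8e-04).

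Of the 5 genes of tubulin autoregulation, Ttc5, the factor that recognises nascent tubulins, was the one called higher with Tubastatin A against vehicle. It had 28.1, 25.9, 22.8 and 27.4 RPKM in Tubastatin A libraries, 12.4, 12.5 and 10.5 RPKM in vehicle libraries and 13.9, 13.3 and 8.23 RPKM in fresh libraries, a log2 change of 1.08 against vehicle (limma adjusted p = 1.3e-04) and of 1.11 against fresh (adjusted p = 8.2e-05). Scaper, the adaptor between it and the deadenylase, had a log2 change of -0.35 (limma adjusted p = 0.0099) and averaged 1.03 ± 0.104 RPKM in Tubastatin A and 1.60 ± 0.281 RPKM in vehicle cells, but without vehicle replicate 1 its change was -0.27 and did not pass (limma adjusted p = 0.052). Cnot1, Cnot10 and Cnot11, subunits of that deadenylase, did not pass, although Cnot1 passed without vehicle replicate 2 (-0.57, adjusted p = 0.047).

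Of the 3 genes of lysine acetylation, Sirt2, a tubulin deacetylase, had 35.5, 34.5, 33.4 and 38.2 RPKM in Tubastatin A libraries, 13.3, 14.6 and 16.7 RPKM in vehicle libraries and 64.3, 75.8 and 64.7 RPKM in fresh libraries. It was 1.20 higher on the log2 scale with Tubastatin A than with vehicle (limma adjusted p = 2.5e-06) and changed by -0.93 against fresh cells (adjusted p = 1.5e-05). Atat1, the acetyltransferase, averaged 1.46 ± 0.123 RPKM in Tubastatin A, 3.24 ± 0.260 RPKM in vehicle and 5.82 ± 1.07 RPKM in fresh cells, a log2 change of -0.79 for Tubastatin A against vehicle (limma adjusted p = 2.1e-04). Hdac6, the target of the inhibitor, had 6.60 ± 0.717, 6.16 ± 0.313 and 7.69 ± 0.916 RPKM in Tubastatin A, vehicle and fresh cells and did not pass (limma adjusted p = 0.58 for Tubastatin A against vehicle). Acetylation of the protein was not measured. Of 3 measured genes of the tyrosination cycle (Ttl, the tyrosine ligase, and Svbp and Vash2, parts of a carboxypeptidase) none passed for Tubastatin A against vehicle at an adjusted p under 0.05, with limma p-values of 0.11 or more before adjustment. Ttl passed when only those 2 groups were fitted (-0.21, limma adjusted p = 0.049), and it was higher in vehicle than in fresh cells by 1.04 (limma adjusted p = 1.5e-05). Of 10 measured glutamylation genes, 3 were higher and 1 was lower with Tubastatin A against vehicle, where 29.6% of all genes were higher and 29.7% lower, and Ttll1, which encodes a subunit of a tail glutamate ligase, was one of those higher, at 19.8 ± 1.72 RPKM in Tubastatin A and 11.1 ± 0.325 RPKM in vehicle cells.

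Of 27 measured genes of microtubule-associated proteins, 11 were higher, 4 were lower and 12 did not pass with Tubastatin A against vehicle (59.3% of all genes called), and 7 were higher and 12 lower in vehicle against fresh (67% of all genes called). The 4 lower became 2 with equal library sums, with upper quartile scaling and without vehicle replicate 1 or 2 or Tubastatin A replicate 2, 3 or 4, and the 12 lower became 7 with equal sums. Mapre3 had 55.3, 50.3, 52.3 and 51.8 RPKM in Tubastatin A libraries, against 3.88, 4.35 and 3.92 RPKM in vehicle libraries, a log2 change of 3.40 (limma adjusted p = 1.1e-09). Fresh libraries had 31.6, 30.6 and 39.6 RPKM of Mapre3. Map7, which recruits kinesin-1, averaged 4.58 ± 0.299 RPKM in Tubastatin A and 0.468 ± 0.0817 RPKM in vehicle cells, a log2 change of 1.93. Map6, a stabiliser of microtubules, averaged 4.88 ± 0.461, 0.865 ± 0.0933 and 0.382 ± 0.142 RPKM in Tubastatin A, vehicle and fresh cells. Tpx2, a spindle assembly factor, averaged 0.963 ± 0.471 RPKM in Tubastatin A, 15.1 ± 3.39 RPKM in vehicle and 4.51 ± 0.283 RPKM in fresh cells, a log2 change of -3.04 for Tubastatin A against vehicle (limma adjusted p = 1.3e-07).

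**Figure D4:**
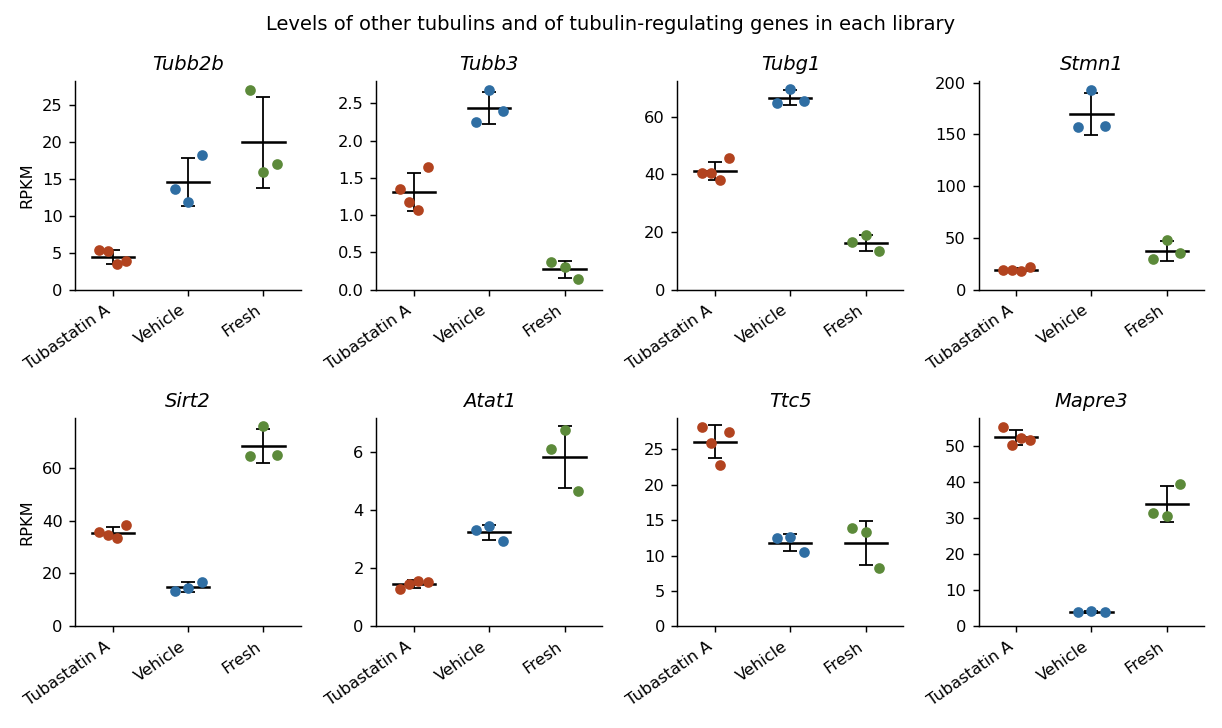
Level (RPKM, linear axis from 0) of 3 other tubulin genes, Stmn1, Sirt2, Atat1, Ttc5 and Mapre3 in every library; points are libraries, horizontal lines the mean and whiskers 1 SD. Stmn1 is at most 21.5 RPKM in Tubastatin A and at least 157.5 RPKM in vehicle, and Mapre3 is at least 50.3 RPKM in Tubastatin A and at most 4.35 RPKM in vehicle libraries.

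Genes of cycling cells moved in the same comparisons as Tuba1b and Tubb5. Of 13 such genes, 13 were lower with Tubastatin A against vehicle, where 29.7% of all genes were lower. In vehicle against fresh 13 were higher, where 32% of all genes were higher. Their summed level was 33.3 to 44.5 RPKM in Tubastatin A, 477.8 to 597.3 RPKM in vehicle and 72.9 to 110.1 RPKM in fresh libraries, so Tubastatin A libraries were below fresh libraries here, whereas they were above them for Tuba1b and Tubb5. The part of the share of cycling cells in the tubulin values was not tested.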

How the data were processed

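The authors' deposited table gives RPKM for 12803 genes in 10 libraries. STAR, Trim Galore, edgeR and the featureCounts program of Subread are named without versions in the submitters' processing notes, with mm10 as the build. The table holds no counts. With union exon lengths of GENCODE M21, 12682 symbols (99.1%) matched a gene, and RPKM times length times 1 factor per library came within 0.05 of a whole number of reads in all libraries for 12211 of them (96.3%), all 10 tubulins included. No value is exactly 0: in 619 genes, 1960 values under 1 read stand in the place of 0.

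For each gene, log2(RPKM + 1) was fitted with limma 3.58.1 in R 4.3.3 with a variance trend, in 1 model of the 3 groups. P-values were adjusted (Benjamini-Hochberg) over all genes and called under 0.05, and no gene was filtered out. The fit was tested on simulated data. Each replicate is a separate animal. Replicate numbers were not used for pairing. No exact permutation test was run. With 3 against 3 libraries, as in vehicle against fresh, such a test cannot go below a two-sided p of 0.10. The comparisons with Tubastatin A have 4 against 3 libraries, where this limit is lower.

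All 10 tubulins are named. Other genes are members of short lists, up to 3 genes of lowest p in longer lists, and the 3 nearest patterns. Tubulins and lists were chosen with earlier results of these data known. Coding stretches were read from the longest complete reading frame per gene. Some stretches are not reported here. Alternatives were equal library sums (TPM), relative log expression and upper quartile scaling, pseudocounts of 0.1 and 5 RPKM, a minimum mean of 1 RPKM, a fit of only 2 groups, a replicate block, each library left out, limma's voom on recovered reads with the authors' scaling and, chosen after seeing the data, voom scaled by reads in the table alone. Other steps ran in Python 3.11.15 (scipy 1.17.1, pandas 2.3.3, numpy 2.4.6, matplotlib 3.10.9).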

Additional observations from a re-analysis of the deposited data

How the results depend on the processing

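For Tubastatin A against vehicle, the 8 tubulin calls and their directions held under every planned and added setting that tested them, except without vehicle replicate 1, where Tuba1c and Tubb4b lost theirs. Leaving out each library gave 6 to 8 tubulins called, 4 to 6 higher and 2 lower, and 6588 to 8341 genes called (3233 to 4192 higher, 3323 to 4149 lower). For vehicle against fresh it gave 7 to 8 tubulins (3 to 4 higher, 4 to 5 lower) and 7868 to 8912 genes (3769 to 4232 higher, 4099 to 4680 lower), and for Tubastatin A against fresh 7 to 9 tubulins (6 to 7 higher, 1 to 2 lower) and 7768 to 8540 genes (3511 to 3907 higher, 4218 to 4659 lower).

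Comparisons with fresh cells moved with the scaling. For vehicle against fresh, equal sums (TPM) called 6280 genes higher and 2894 lower with 5 tubulins higher, and voom scaled by reads in the table alone called 6197 higher and 2759 lower, also with 5 tubulins higher, where the main setting called 4096 and 4484 with 3. For Tubastatin A against fresh, equal sums called 7006 genes higher, 2486 lower and 0 tubulins lower, and voom by reads alone 6660 higher, 2458 lower and 1 tubulin lower, where the main setting called 3811, 4503 and 2. The median of all genes moved by 0.61 and 0.68 under voom by reads alone. Tuba1a against fresh, -0.08, reversed to 0.64 and 0.60, and Tubb2a, -0.34, to 0.38 and 0.34 under these settings. One tubulin was lower under relative log expression, upper quartile scaling and the fit of only 2 groups, since Tubb2a then missed the threshold, or without fresh replicate 2 or 3 or Tubastatin A replicate 1, 2 or 3. Tuba1c against fresh lost its call without fresh replicate 1, vehicle replicate 2 or any Tubastatin A library. Cnot10, for vehicle against fresh, was -0.00 and reversed to 0.55 under equal sums. The cause of these shifts was not tested beyond the scaling itself.

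The replicate block called 7136 genes for Tubastatin A against vehicle, 8503 for vehicle against fresh and 7888 for Tubastatin A against fresh, and left the tubulin counts at 8, 7 and 9. Deviations of libraries numbered 1, 2 and 3 correlated across genes at 0.33, 0.03 and 0.28 between Tubastatin A and vehicle, at 0.33, 0.21 and -0.17 between vehicle and fresh and at 0.20, -0.09 and 0.01 between Tubastatin A and fresh. Libraries with different numbers correlated at -0.32 to 0.08 between Tubastatin A and vehicle, a range that numbers 1 and 3 exceeded. Such values were -0.48 to 0.37 between vehicle and fresh and -0.27 to 0.12 between Tubastatin A and fresh. All pairs numbered 1 were positive, but not every pair exceeded 0.1 and not every library correlated best with its own number. The numbers were therefore not used as pairs. On the recovered whole reads with the authors' scaling, limma's voom called 7585, 8252 and 7981 genes in these comparisons, with the same tubulin counts. With a minimum mean of 1 RPKM Tuba8 was not tested. Tuba8 in vehicle rests on 0 to 2 reads per library.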
